A study of Mus musculus with 2 samples.

Results

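The Ms4a genes encode small proteins that cross the cell membrane several times, with both ends in the cytoplasm, and lie side by side in one cluster of the mouse genome. The 8 genes described here, of 32432 measured, are Ms4a1, Ms4a4a, Ms4a4b, Ms4a4c, Ms4a6b, Ms4a6c, Ms4a6d and Ms4a7. They were chosen by name, as members of the family known from B cells, T cells or myeloid cells, with earlier results of these data known. All 8 were found in every matrix. The measurements are counts of unique molecular identifiers (UMIs), each standing for 1 captured transcript end, in single leukocytes of B16-F10 tumours. B16-F10 is a mouse melanoma cell line.

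The study asked how the immune response that follows loss of Trex1 bears on tumour growth. TREX1 is an exonuclease that degrades DNA in the cytosol, and its loss is known to switch on type I interferon. Both groups were male mice aged 8 to 12 weeks that carried 1 copy of a tamoxifen-inducible Cre (R26CreERT2-ki/wt), injected with 1000 B16-F10 cells in Matrigel in both legs. Both groups received 1 mg tamoxifen from day 5 for 3 days, and tumours were taken on day 14. Trex1 iKO mice were Trex1 fl/fl, and Trex1 control mice were Trex1 wt/fl, so the control cells also carried 1 conditional allele and the active Cre. This Cre sits in a widely expressed locus, so deletion was not directed to 1 cell type. The injected tumour cells were not part of this deletion. Live CD45+ cells were sorted, marked with hashtag antibodies as 4 samples a genotype, and run as 1 pool a genotype. The 8 hashtagged samples are the replicates. Whether a hashtagged sample is 1 mouse is not stated in the labels, so p-values measure the spread between these samples, and genotype and pool cannot be told apart.

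After filters 22052 cells were kept, with 17111065 to 96457227 UMIs in a sample before filtering. Before filtering the median barcode had 12535.5 to 14221 UMIs in the iKO samples and 5794 to 11490 in the control samples. Among kept cells the medians were 12983 to 14490.5 and 6405 to 11845.5. Trex1 had 2 UMIs in all, both in control sample 2, so its transcript could not be used to check the genotypes. Between replicates of 1 group, a chi-square test of the gene counts gave 8.19 to 230 per degree of freedom, so no sample was a duplicate. Samples iKO 1 and iKO 2 were closer to each other, at 25.4, and iKO 3 and iKO 4 to each other, at 8.19, than to the other pair, at 102 to 230. Control sample 3 stood apart by its B-like cells, which were 19.9% of its cells against 0.717% to 4.66% in the other 7 samples. No barcode was shared within a pool, and 45 were shared between the pools.

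MS4A1 is CD20, a surface protein of B cells that is tied to B cell receptor signalling and calcium entry and is the target of rituximab. MS4A4B is a T cell and natural killer (NK) cell protein that has been found to associate with the T cell costimulatory receptor GITR. MS4A4A and MS4A7 are known from macrophages, and MS4A4A has been found to associate with the fungal receptor dectin-1. Ms4a4c, Ms4a6b, Ms4a6c and Ms4a6d are mouse genes of less well known function. In the gene order of the mouse annotation, Ms4a7, Ms4a4a, Ms4a4c, Ms4a4b, Ms4a6c and Ms4a6b are neighbours on chromosome 19, among 21 Ms4a genes there.

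The promoters of 4 members fall into 2 alike pairs, Ms4a4b with Ms4a4c and Ms4a6b with Ms4a6c. They are given because the genes of a pair differ in the cells that hold them, as described further on. Each runs from 250 bases before to 50 bases after the gene's start, on the plus strand, from RefSeq in the build GRCm38.p6. Capitals mark runs of 12 or more bases that are identical in the other gene of the pair.
Ms4a4b, chr19:11443308-11443607: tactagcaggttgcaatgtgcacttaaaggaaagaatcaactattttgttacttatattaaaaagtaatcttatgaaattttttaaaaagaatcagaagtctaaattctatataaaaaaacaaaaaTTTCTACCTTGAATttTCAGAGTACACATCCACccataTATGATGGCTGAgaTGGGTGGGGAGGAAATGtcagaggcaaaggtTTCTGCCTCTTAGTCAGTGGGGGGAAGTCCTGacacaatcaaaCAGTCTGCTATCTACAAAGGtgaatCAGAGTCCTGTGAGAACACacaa
Ms4a4c, chr19:11407411-11407710: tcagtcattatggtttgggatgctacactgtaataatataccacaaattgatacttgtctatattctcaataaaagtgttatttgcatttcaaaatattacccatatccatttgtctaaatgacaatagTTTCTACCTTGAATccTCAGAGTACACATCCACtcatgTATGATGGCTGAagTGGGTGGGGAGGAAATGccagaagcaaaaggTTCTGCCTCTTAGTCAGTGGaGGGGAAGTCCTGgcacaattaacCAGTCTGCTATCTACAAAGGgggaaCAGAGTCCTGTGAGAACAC
Ms4a6b, chr19:11518309-11518608: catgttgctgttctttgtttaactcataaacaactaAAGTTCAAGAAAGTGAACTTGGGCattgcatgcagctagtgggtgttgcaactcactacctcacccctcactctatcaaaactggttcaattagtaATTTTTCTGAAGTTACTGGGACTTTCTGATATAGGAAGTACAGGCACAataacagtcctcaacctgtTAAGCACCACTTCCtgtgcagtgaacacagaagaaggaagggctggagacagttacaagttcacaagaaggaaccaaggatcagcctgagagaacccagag
Ms4a6c, chr19:11469118-11469417: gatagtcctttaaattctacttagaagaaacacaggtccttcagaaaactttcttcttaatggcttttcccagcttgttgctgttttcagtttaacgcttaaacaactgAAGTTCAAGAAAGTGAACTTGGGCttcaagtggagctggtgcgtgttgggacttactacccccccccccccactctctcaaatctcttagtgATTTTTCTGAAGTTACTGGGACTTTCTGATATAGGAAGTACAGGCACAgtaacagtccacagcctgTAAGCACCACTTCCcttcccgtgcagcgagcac
Of 178 aligned columns, 159 were identical between Ms4a4b and Ms4a4c (89.3%), with 131 bases in 8 long runs. For Ms4a6b and Ms4a6c the figure was 193 of 234 columns (82.5%), with 86 bases in 3 long runs, the longest of 48 bases. No other pair among the 7 promoters found, of 6 members, shared a run of that length. A set of 4 motif strings was searched on both strands of the 7 promoters. They were GAAA, any 2 bases and GAAA again (interferon-stimulated response element), TTCNNNGAA (gamma-activated site), GGAA, any 2 bases and GAAA (ETS-IRF composite element) and GAGGAAGT (PU.1 box). There were 0 matches in the members, where 3.44%, 8.3%, 2.72% and 3.2% of 32851 promoters held them. Some words of transcript ends are also shared. Of the 50-base words in the last 500 bases of Ms4a4c, 11.75% also occur somewhere in Ms4a4b transcripts. For Ms4a6c, 13.75% of these words occur somewhere in transcripts of other genes, Ms4a6b among them. Reads from these shared words cannot be told apart, so counts of Ms4a4c with Ms4a4b, and of Ms4a6c with Ms4a6b, carry that uncertainty. In the last 500 bases of the other 6 members, Ms4a4b and Ms4a6b among them, no word occurred in another gene.

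Cells were grouped by clustering without the Ms4a genes, and the groups were named from marker genes. The classes hold 4927 CD8 T-like, 774 CD4 T-like, 894 regulatory T (Treg)-like, 252 NK-like, 964 B-like, 4202 monocyte-like, 1379 macrophage-like, 888 conventional dendritic cell 2 (cDC2)-like and 1935 neutrophil-like cells. There were also 1925 monocyte or macrophage-like cells whose markers did not separate the 2 names, smaller dendritic classes, and 2917 cells that stayed unnamed. The combined monocyte/macrophage-like class holds all 3 of these myeloid groups. It lacks clusters 7, 19 and 32, which stayed unnamed. Their marker scores were monocyte or macrophage-like, but their leading genes included markers of another type. They held 926, 658 and 62 cells, of which 73.3%, 42.6% and 56.5% were iKO cells. Clusters 15 and 23, of 710 and 516 T cells, stayed unnamed because no subset marker was found in most of their cells. They made up 5.77% and 3.29% of control and 1.52% and 1.71% of iKO cells. The T-like levels and tests leave them out. Levels by class are given for 12 classes, without the monocyte or macrophage-like group, whose clusters are given by number. Levels are in CPM, the UMIs of a gene per 1000000 UMIs of that class in that sample. Since each UMI is 1 transcript end, CPM does not grow with transcript length.

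Ms4a1 was a B cell gene in these tumours. Its level was 680 ± 177 CPM (SD, n = 8) in B-like cells and at most 3.77 CPM on average in any other class, and B-like cells were the highest class in 8 of 8 samples. Ms4a4b was the T and NK gene. It reached 1777 ± 357 CPM in NK-like cells (n = 4), 1448 ± 417 in CD8 T-like and 1411 ± 505 in CD4 T-like cells (both n = 8). The NK-like level was above the CD8 T-like level in 4 of 4 samples, while CD8 and CD4 T-like levels did not keep an order (4 of 8 samples). Treg-like cells, at 377 ± 318 CPM, were below CD4 T-like cells in 8 of 8 samples, and the other 8 classes had 21.3 to 84.0 CPM.

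Ms4a6b was the member shared by lymphoid and myeloid cells. It stood at 707 ± 253 CPM in CD4 T-like cells and 680 ± 228 in monocyte-like cells (n = 8), an order that held in only 5 of 8 samples. Macrophage-like cells had 481 CPM, CD8 T-like 477, Treg-like 347 and cDC2-like 329, and none of these neighbours kept its order in every sample. B-like cells had 113 ± 56.2 CPM.

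Ms4a4c, Ms4a6c and Ms4a6d were highest in monocyte-like cells. Ms4a4c had 952 ± 507 CPM there, 780 ± 474 in cDC2-like and 593 ± 507 in macrophage-like cells, and that order held in 8 of 8 samples. In B-like cells it was 265 ± 157 CPM and in CD8 T-like cells 78.1 ± 30.8. Ms4a6c had 1500 ± 244 CPM in monocyte-like, 1066 ± 364 in macrophage-like and 772 ± 316 in cDC2-like cells, again in this order in 8 of 8 samples. Its levels in the T-like classes were 39.8 to 75.6 CPM. Ms4a6d followed the same order, with 657 ± 179, 609 ± 206 and 261 ± 52.0 CPM in these 3 classes, and had 29.5 to 37.2 CPM in the T-like classes.

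Ms4a7 was the macrophage gene. Macrophage-like cells had 938 ± 188 CPM and monocyte-like cells 41.0 ± 8.51, an order kept in 8 of 8 samples, and the other 10 of the 12 classes had at most 19.5 CPM. In clusters 22, 31 and 1 of the monocyte or macrophage-like group it was 462, 184 and 119 CPM over all cells. Ms4a4a was low throughout, at 29.2 ± 6.57 CPM in monocyte-like and 19.1 ± 8.41 in macrophage-like cells, with at most 3.78 CPM in the other 10 of the 12 classes. Clusters 22, 31 and 1 of the monocyte or macrophage-like group had 34.96 CPM, 24.9 CPM and 24.1 CPM over all cells. The monocyte-like level was the higher in 7 of 8 samples.

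**Figure D1:**
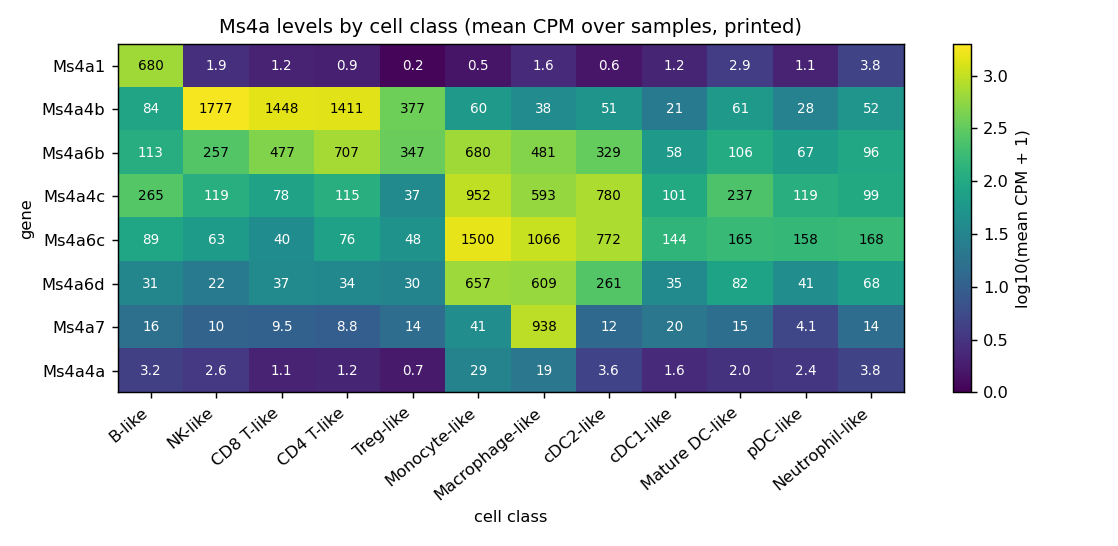
Mean level (CPM, colour) of the 8 Ms4a genes in 12 cell classes over the samples with at least 20 cells of the class. Ms4a1 fills 1 column, B-like (680 CPM), Ms4a4b the T-like and NK-like columns, Ms4a7 the macrophage-like column (938 CPM), and Ms4a6b spans both T-like and myeloid columns.

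Across the 34 clusters the members fell into the same groups. Pearson's r of log2(CPM + 1) was 0.935 between Ms4a6c and Ms4a6d, 0.930 between Ms4a4a and Ms4a6d, and 0.888 between Ms4a4c and Ms4a6c. It was −0.465 between the close copies Ms4a4b and Ms4a4c, and 0.232 between the close copies Ms4a6b and Ms4a6c. Clusters share libraries and depth, so these are descriptions over 34 clusters. Genes most like Ms4a1 were Fcmr and Fcer2a, both receptors for immunoglobulin (r = 0.972 each), and Pax5, a B cell transcription factor (0.967). Those most like Ms4a4b were F2r, a thrombin receptor (0.973), Sh2d1a, a T and NK signalling adaptor (0.970), and Cd96, a T and NK receptor (0.966). Ms4a7 was most like C1qc, C1qb and C1qa, the complement genes of macrophages (0.960, 0.960 and 0.945), which are themselves macrophage markers used to name the class. Ms4a6c was most like the C-type lectins Clec4a3 (0.979) and Clec4a1 (0.978), and Ms4a6d most like the lysosomal protease gene Ctsc (0.974) and the Fc receptor gene Fcgr1 (0.969). Ms4a6b had no close match: its best was Casp8, a protease gene of cell death (0.811).

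The genotype comparison asked which members differed between Trex1 iKO and control cells of the same class. UMIs were summed by sample and class and tested with edgeR's quasi-likelihood test over all genes, at a Benjamini-Hochberg adjusted p of 0.05, and log2 differences are iKO minus control. Of 70 pairs of a member with a class or with the whole sample, 59 were above 0 and 21 passed the test, all of them higher in iKO. These pairs share cells, since the whole sample and the combined myeloid class hold the others. Where a member passed, the share of all tested genes called higher ran from 0.949% in Treg-like to 8.85% in monocyte-like cells. The 10 classes counted next include the combined class beside its monocyte-like and macrophage-like parts. Ms4a4c and Ms4a6b each rose in 6 of 10 classes and were above 0 in 10 of 10. Ms4a4b rose in 4 of 10, Ms4a6c in 1 of 10 and Ms4a7 in 1 of 8, while Ms4a1, Ms4a4a and Ms4a6d passed in none of 2, 3 and 9. In CD8 T-like cells Ms4a6d (0.52, adjusted p = 0.0609 in edgeR) passed with the sample number as a block (0.54, adjusted p = 0.0280) and in DESeq2 (0.52, adjusted p = 0.0375), which made 4 members called there in place of 3.

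Over all cells of a sample, 3 of 8 members rose, where 1.69% of 13459 genes were called higher. Ms4a4c had 267, 198, 225 and 199 CPM in control samples 1 to 4 and 772, 679, 555 and 634 in iKO samples 1 to 4. No iKO sample overlapped the controls, and the log2 difference was 1.57 ± 0.13 (SE, adjusted p = 0.00102, edgeR). Ms4a6b rose by 1.07 ± 0.16 (adjusted p = 0.0125, edgeR) and Ms4a6c by 0.61 ± 0.095 (adjusted p = 0.0152, edgeR). In such sums a change in the number of cells of a type and a change in RNA per cell cannot be told apart, so the classes follow. With the sample number as a block, 5 members rose, Ms4a7 (0.97, adjusted p = 0.0289) and Ms4a6d (0.60, adjusted p = 0.0328) besides. The count fell to 1 without control sample 2 or without control sample 3 and was 5 without control sample 4.

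Ms4a1 did not pass the test in B-like cells. Its levels were 861, 546, 447 and 758 CPM in control samples 1 to 4 and 655, 984, 595 and 596 in iKO samples 1 to 4. The groups overlapped, with a log2 difference of 0.19 ± 0.19 (adjusted p = 0.721, edgeR). Its sign turned without iKO sample 2 (−0.007) and without control sample 3 (−0.006). With each cell thinned to 2000 UMIs, 63.2% ± 12.01 of control and 71.3% ± 3.59 of iKO B-like cells had an Ms4a1 UMI (SD, n = 4), where 657 of 714 control and 237 of 250 iKO cells were deep enough to be thinned. Without thinning these shares were 76.3% and 88.0%, at median depths of 3852 and 4857 UMIs. CD8 T-like cells, which should lack CD20, had thinned shares of 0.710% and 0.010%, at median depths of 10261 and 11625 UMIs. Over the whole sample Ms4a1 ranged from 5.81 to 43.0 CPM in control and 2.96 to 9.54 in iKO samples, and the highest was control sample 3, the one with the most B-like cells.

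Ms4a4c was the member that moved in B-like cells: it rose by 1.67 ± 0.22 on the log2 scale (adjusted p = 3.28e-05, edgeR), where 2.03% of 3543 genes were called higher. Control samples 1 to 4 had 224, 98.4, 105 and 121 CPM, and iKO samples 1 to 4 had 341, 547, 326 and 357. The lowest iKO sample was above the highest control sample. Thinned shares of B-like cells with an Ms4a4c UMI were 20.3% ± 6.70 in control and 51.2% ± 10.1 in iKO samples, against 10.1% and 18.3% in CD8 T-like cells. Ms4a6c (1.05, adjusted p = 0.112) and Ms4a6b (0.80, adjusted p = 0.0895) did not pass in edgeR. With the sample number as a block both did (1.02, adjusted p = 0.0411 and 0.92, adjusted p = 0.0480), as did 3 members without iKO sample 4. In these B-like cells the 6 monocyte markers (Vcan, Chil3, Plac8, F13a1, Ccr2 and Hp) summed to 553 to 682 CPM in control and 664 to 1154 in iKO samples. The 7 neutrophil markers summed to 655 to 763 and 200 to 293, and no marker was at 0. Lyz2, on neither list, overlapped, with 341 to 423 CPM in control and 273 to 802 in iKO samples. The part of these markers in the result was not tested.

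Ms4a4b rose in every T-like class tested. In CD8 T-like cells control samples 1 to 4 had 1214, 1137, 1109 and 868 CPM and iKO samples 1 to 4 had 1643, 1726, 1891 and 2000.1. The groups did not overlap, and the log2 difference was 0.78 ± 0.098 (adjusted p = 0.00144, edgeR), where 3.15% of 9383 genes were called higher. CD4 T-like cells had 1266, 953, 701 and 1369 CPM in control and 1710, 2375, 1347 and 1569 in iKO samples. There the lowest iKO sample lay just under the highest control sample, and the difference was 0.70 ± 0.17 (adjusted p = 0.0187, edgeR), where 2.18% of 5699 genes were called higher. It no longer passed when iKO sample 2 or control sample 2 was left out (adjusted p up to 0.0992).

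The Ms4a4b difference in Treg-like cells, the FOXP3+ suppressive T cells, had a larger estimate. Control samples 1 to 4 had 245, 83.4, 54.5 and 75.0 CPM, and iKO samples 1 to 4 had 720.2, 904, 457 and 476. Control sample 1 was the highest control, and still below every iKO sample. The log2 difference was 2.52 ± 0.38 (adjusted p = 0.00929, edgeR), where 0.949% of 7900 genes were called higher, and without control sample 2 the call was lost (adjusted p = 0.0579). Thinned shares of Treg-like cells with an Ms4a4b UMI were 13.4% ± 4.55 in control and 54.4% ± 4.84 in iKO samples, against 6.47% and 13.9% in monocyte-like cells, and unthinned 34.8% and 78.3%. The Treg-like cells had median depths of 7076 and 8759 UMIs and the monocyte-like cells 12594 and 13488, and 295 of 340 control and 530 of 554 iKO Treg-like cells could be thinned. The larger of the 2 Treg-like clusters held 82.6% of these cells in control and 84.8% in iKO samples, and inside it Ms4a4b was 154 CPM in control and 761 in iKO samples, again with no overlap. A comparison added after these values were seen set the Treg-like against the CD8 T-like effect sample by sample. On the log2(CPM + 1) scale the effects were 2.67 and 0.75, with a difference of 1.91. Its exact two-sided permutation p was 0.0286, the smallest that 4 against 4 samples can give, or 0.0572 adjusted over the 2 genes compared, which did not pass. After that adjustment a difference in 1 gene alone could not have passed, so the test does not show whether the effects differ. For the other gene, Ms4a6b, the difference was 0.35 (exact permutation p = 0.200). Foxp3 was 267 ± 69.2 CPM in control and 322 ± 30.6 in iKO Treg-like cells, and Cd8a was 21.6 ± 22.5 and 53.6 ± 50.4 (SD, n = 4). The part of CD8 T cell RNA in this result was not tested.

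**Figure D2:**
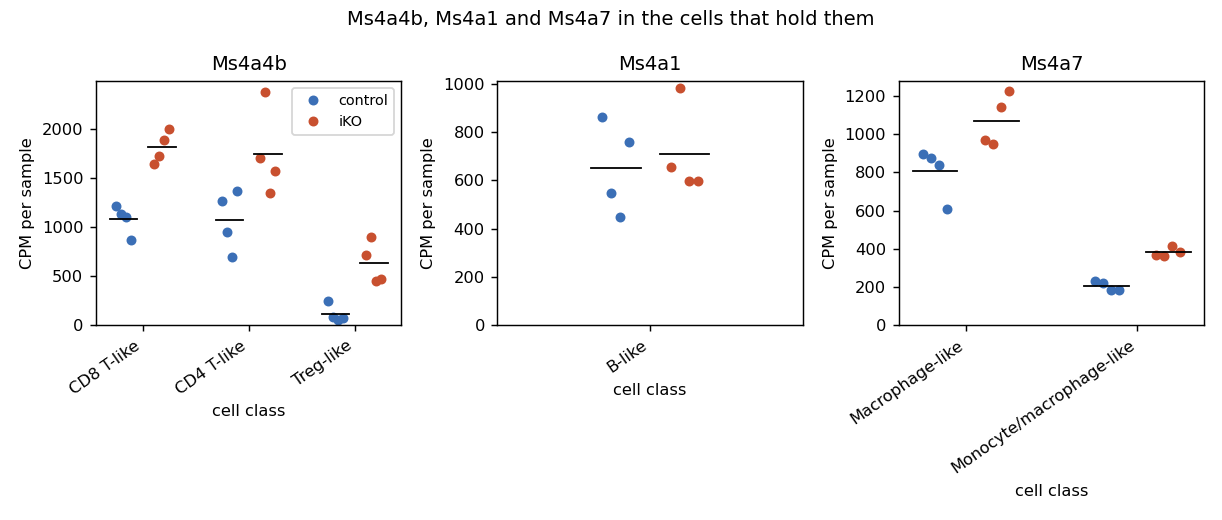
Levels (CPM) of Ms4a4b, Ms4a1 and Ms4a7 in single samples, by cell class and genotype, 1 point a sample. Treg-like Ms4a4b runs from 54.5 to 245 CPM in control and from 457 to 904 in iKO samples, while B-like Ms4a1 overlaps between the genotypes.

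Ms4a6b rose in all 3 T-like classes. In CD8 T-like cells it had 308, 324, 369 and 259.8 CPM in control samples 1 to 4 and 529, 566, 742 and 722 in iKO samples 1 to 4, a log2 difference of 1.05 ± 0.12 (adjusted p = 0.00105, edgeR). In Treg-like cells the values were 279.6, 178, 183 and 140.2 CPM in control and 537, 629, 402 and 424 in iKO samples (1.33 ± 0.20, adjusted p = 0.00774, edgeR). Neither class had an overlap between the groups. CD4 T-like cells rose from 533 ± 99.5 to 882 ± 243 CPM (SD, n = 4), without overlap, by 0.71 ± 0.16 (adjusted p = 0.0115, edgeR). The CD4 value did not pass when either number 2 sample, iKO or control, was left out (adjusted p up to 0.0753). Thinned shares of cells with an Ms4a6b UMI went from 50.7% ± 5.86 to 70.2% ± 5.15 in CD8 T-like and from 33.6% ± 8.09 to 63.1% ± 8.73 in Treg-like cells, with B-like cells at 9.24% and 24.1%. Unthinned they were 89.8% and 97.4%, and 66.6% and 93.8%. Of the CD8 T-like cells, 859 of 904 in control and 3965 of 4023 in iKO samples could be thinned.

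Ms4a4c, low in T cells, also rose there. CD4 T-like cells had 51.4, 38.5, 51.6 and 69.7 CPM in control samples 1 to 4 and 198, 254, 124 and 131 in iKO samples 1 to 4. No iKO sample overlapped the controls (1.79 ± 0.23, adjusted p = 1.66e-05, edgeR). In these CD4 T-like cells the 6 monocyte markers summed to 351 to 397 CPM in control and 426 to 666 in iKO samples, the 8 macrophage markers to 294 to 405 and 100.4 to 179, and the 7 neutrophil markers to 544 to 647 and 161 to 219.7. None of these markers was at 0, and their part in the result was not tested. CD8 T-like cells had 41.4, 43.4, 85.0 and 52.3 CPM in control and 85.7, 79.0, 121 and 117 in iKO samples, with control sample 3 inside the iKO range. The difference of 0.88 ± 0.22 (adjusted p = 0.0453, edgeR) was lost without any 1 of 7 of the 8 samples, all but control sample 3 (adjusted p up to 0.148), and with summed UMIs alone as scaling (adjusted p = 0.0668). In Treg-like cells the difference was 0.91 ± 0.40 and did not pass (adjusted p = 0.298, edgeR).

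The CD8 T-like class was made of different clusters in the 2 groups. Cluster 0 held 31.9% of its iKO and 6.97% of its control cells, while clusters 10 and 21 held 13.8% and 7.73% of iKO and 34.96% and 32.0% of control cells. Inside cluster 10, Ms4a4c was 72.9 CPM in control and 248 in iKO samples and Ms4a4b was 2000.2 and 2788, and inside cluster 21 Ms4a4c was 60.1 and 155. In all 3 cases the samples of the groups did not overlap. Over the 19 single clusters compared further on, though, the Ms4a4b groups were apart in 4 and overlapped in 15. The 7 T cell markers summed to 4261 to 5237 CPM in control and 6112 to 6357 in iKO CD8 T-like cells, and the 6 monocyte markers to 450.1 to 966 and 951 to 1649, none of them at 0. The 8 macrophage markers summed to 156 to 376 and 84.7 to 177 CPM. Lyz2, on neither list, had 158 to 393 CPM in control and 103 to 202 in iKO CD8 T-like cells. Its mean in control monocyte-like cells was 13306 CPM. The part of these markers in the T cell results was not tested.

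Ms4a4c had a clear difference in the myeloid classes. In monocyte-like cells, control samples 1 to 4 had 634, 486, 476 and 499.9 CPM, and iKO samples 1 to 4 had 1661, 1663, 1088 and 1109. All iKO samples were above all controls, and the log2 difference was 1.40 ± 0.18 (adjusted p = 0.000965, edgeR), where 8.85% of 9736 genes were called higher. In cDC2-like cells it had 508, 382, 336 and 328 CPM in control and 1447, 1454, 985 and 806 in iKO samples (1.62 ± 0.20, adjusted p = 0.00330, edgeR), again apart, where 1.88% of 8784 genes were called higher. In the combined monocyte/macrophage-like class the difference was 1.58 ± 0.31 (adjusted p = 0.0164, edgeR), where 5.82% of 11424 genes were called higher. That last one did not pass when iKO sample 2 or control sample 2 was left out (adjusted p up to 0.0543).

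Macrophage-like cells showed how far the iKO samples differed among themselves. Ms4a4c was 287, 276, 316 and 166 CPM in control samples 1 to 4, 1386 and 1401 in iKO samples 1 and 2, and 335 and 576 in iKO samples 3 and 4. All iKO samples were still above the controls, but iKO sample 3 only just, and the difference of 1.85 ± 0.44 did not pass (adjusted p = 0.105, edgeR). In this class 0 of 7 members tested passed in edgeR, where 0.259% of 8507 genes were called, 5 had an unadjusted p under 0.05, and DESeq2's Wald test called 1, Ms4a4c (adjusted p = 0.00341). Without iKO sample 3 edgeR called 2. Cluster 4 held 86.0% of the iKO and 31.4% of the control macrophage-like cells, and cluster 24 the other 14.0% and 68.6%. The 8 macrophage markers summed to 19989 to 26494 CPM in control and 7698 to 20584 in iKO samples, and the 6 monocyte markers to 949 to 1067 and 778 to 2820, none at 0, and their part was not tested.

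**Figure D3:**
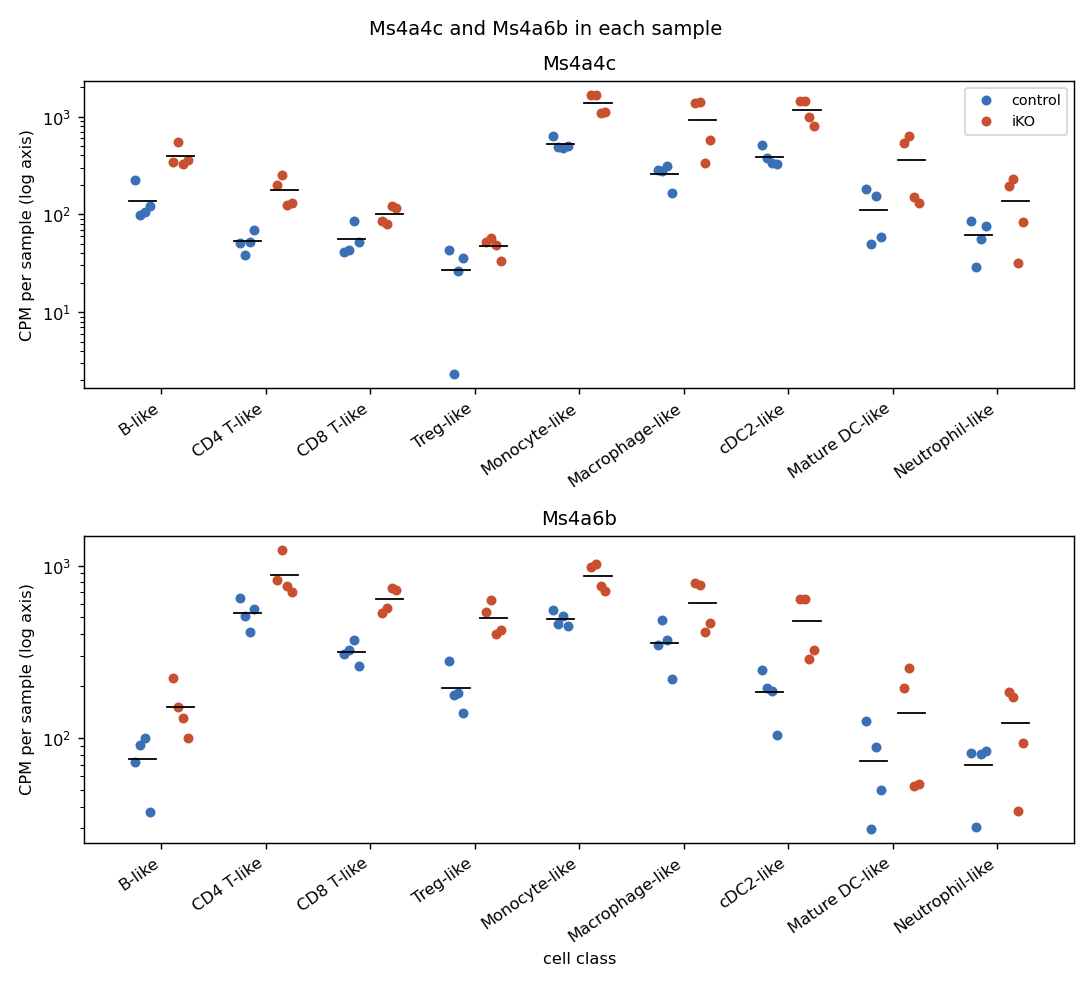
Levels (CPM, log axis) of Ms4a4c and Ms4a6b in single samples of 9 cell classes, 1 point a sample, by genotype. In monocyte-like cells Ms4a4c lies between 476 and 634 CPM in control and between 1088 and 1663 in iKO samples, and in macrophage-like cells the iKO points spread from 335 to 1401.

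Ms4a6b rose in monocyte-like cells from 491 ± 48.2 to 869 ± 154 CPM (SD, n = 4), without overlap, by 0.82 ± 0.14 on the log2 scale (adjusted p = 0.00370, edgeR). In cDC2-like cells control samples 1 to 4 had 248, 195, 187 and 104 CPM and iKO samples 1 to 4 had 644, 643, 287 and 323. The groups were apart there too (1.41 ± 0.30, adjusted p = 0.0364, edgeR), although iKO samples 3 and 4 were nearer the controls. The combined monocyte/macrophage-like class gave 0.98 ± 0.22 (adjusted p = 0.0254, edgeR). Both of these last calls were lost without any 1 of iKO samples 1 and 2 and control samples 2, 3 and 4 (adjusted p up to 0.120 and up to 0.0768).

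Ms4a6c, the most abundant member in monocyte-like cells, differed little. Control samples 1 to 4 had 1322, 1362, 1445 and 1142 CPM and iKO samples 1 to 4 had 1827, 1850.0, 1568 and 1482. The groups did not overlap, and the difference of 0.35 ± 0.10 passed the test (adjusted p = 0.0409, edgeR), but not without any 1 of 6 samples, all but iKO samples 3 and 4 (adjusted p up to 0.118). In cDC2-like cells it was 0.81 ± 0.22 (adjusted p = 0.0737, edgeR), and with the sample number as a block it passed (0.75, adjusted p = 0.0121), as it did in DESeq2 (0.81, adjusted p = 0.0174). Ms4a6d had 579, 513, 553 and 514 CPM in control and 941, 943, 602 and 611 in iKO monocyte-like cells. All iKO samples were above the controls, and the difference of 0.52 ± 0.17 did not pass in edgeR (adjusted p = 0.0612), although it did in DESeq2 (0.51, adjusted p = 0.0424).

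Ms4a4b, which belongs to T cells, also rose in monocyte-like cells, from 41.2 ± 10.1 to 79.6 ± 25.0 CPM (SD, n = 4), by 0.97 ± 0.25 (adjusted p = 0.0250, edgeR). The call was lost without any 1 of 5 samples, iKO 1, iKO 2, control 1, control 2 and control 4 (adjusted p up to 0.0705). In those cells the 7 T cell markers, none at 0, summed to 69.5 to 97.9 CPM in control and 78.3 to 182 in iKO samples. Cd8a had 1.84 to 7.63 CPM in control and 13.8 to 20.3 in iKO samples, and Cd8b1 1.84 to 7.40 and 8.39 to 22.2, both without overlap. Cd3e (7.43 to 12.9 and 9.25 to 18.9) and Foxp3 (0.898 to 3.68 and 0.239 to 2.07) overlapped. The part of T cell RNA in this result was not tested. Monocyte-like cells were spread over different clusters: clusters 3 and 8 held 30.4% and 27.4% of the iKO and 10.75% and 3.16% of the control cells, and cluster 16 held 9.98% and 38.1%. With 4 samples a group, 4 of 7 members tested rose in this class, and 2 did when any 1 of iKO 1, iKO 2, control 2 and control 4 was left out.

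Ms4a7 rose in the combined monocyte/macrophage-like class, from 229, 219.7, 185 and 187 CPM in control samples 1 to 4 to 369, 362, 414 and 383 in iKO samples 1 to 4. The groups were apart and the difference was 0.82 ± 0.093 (adjusted p = 0.00305, edgeR). The make-up of that class differed: cluster 4, a macrophage-like cluster, was 3.08% of its control and 19.2% of its iKO cells, and cluster 1 was 32.6% and 9.22%. The part of this shift in the result was not tested, and values inside the groups that make up the class follow. Macrophage-like cells had 895, 877, 839 and 611 CPM in control and 968, 947, 1142 and 1226 in iKO samples (0.41 ± 0.14, adjusted p = 0.175, edgeR), and monocyte-like cells gave 0.38 ± 0.14 (adjusted p = 0.0921, edgeR), so neither passed. In the monocyte or macrophage-like group, Ms4a7 was 80.3 CPM in control and 173 in iKO samples of cluster 1, without overlap, and 352 and 667 in cluster 22, with overlap. Thinned shares of macrophage-like cells with an Ms4a7 UMI were 70.6% ± 6.09 in control and 67.3% ± 11.2 in iKO samples, and 1.65% and 1.71% in CD8 T-like cells. Ms4a4a went the other way without passing in edgeR: 32.6 ± 8.48 CPM in control and 22.1 ± 3.70 in iKO samples of the combined class (−0.63 ± 0.19, adjusted p = 0.0583, edgeR). With the sample number as a block it passed (−0.61, adjusted p = 0.0262), as it did in DESeq2 (−0.64, adjusted p = 0.0168).

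No member passed in 2 further classes. In neutrophil-like cells 0 of 6 passed in edgeR, where 1.37% of 6853 genes were called, 3 had an unadjusted p under 0.05, and DESeq2 called 0. In mature dendritic cell-like cells 0 of 6 passed in edgeR, where 0.041% of 7321 genes were called, 1 had an unadjusted p under 0.05, and DESeq2 called 0. Ms4a4c had 1.17 ± 0.45 (adjusted p = 0.390, edgeR) and 1.76 ± 0.53 (adjusted p = 0.242, edgeR) in these classes, and Ms4a6b 0.86 ± 0.38 and 0.99 ± 0.52.

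**Figure D4:**
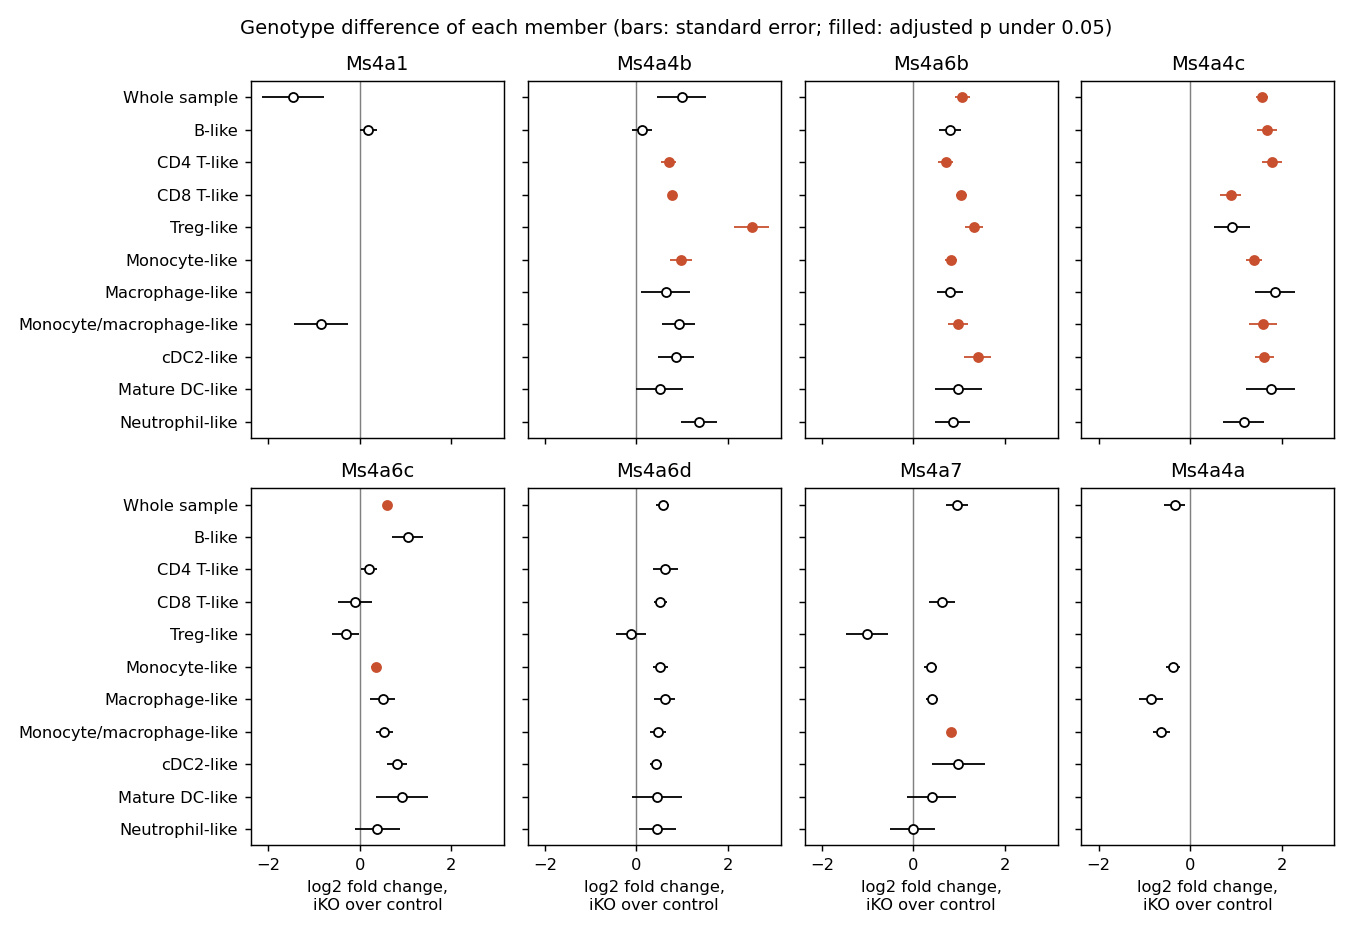
Log2 difference (iKO minus control) of the members in each class and in the whole sample, with its standard error, from edgeR. Filled points have an adjusted p under 0.05. Ms4a4c lies between 0.88 and 1.85 in every class, and the highest point is Ms4a4b in Treg-like cells, at 2.52.

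Because the classes differ in their clusters, the members were also compared inside 19 single clusters with at least 3 samples a group. Ms4a4c and Ms4a6b each had a higher iKO mean in 19 of 19 clusters, with every iKO sample above every control sample in 14. Ms4a6d also had a higher mean in 19 of 19, but separate groups in only 4. Ms4a4b had a higher mean in 18 and separate groups in 4, Ms4a6c 15 and 3, and Ms4a7 13 and 4. Ms4a4a was separate and lower in 3 clusters and Ms4a1 in 1, and neither was separate and higher in any. How often other genes had separate groups in these clusters was not counted. The numbers are therefore descriptions without a share over all genes to set them against.

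**Figure D5:**
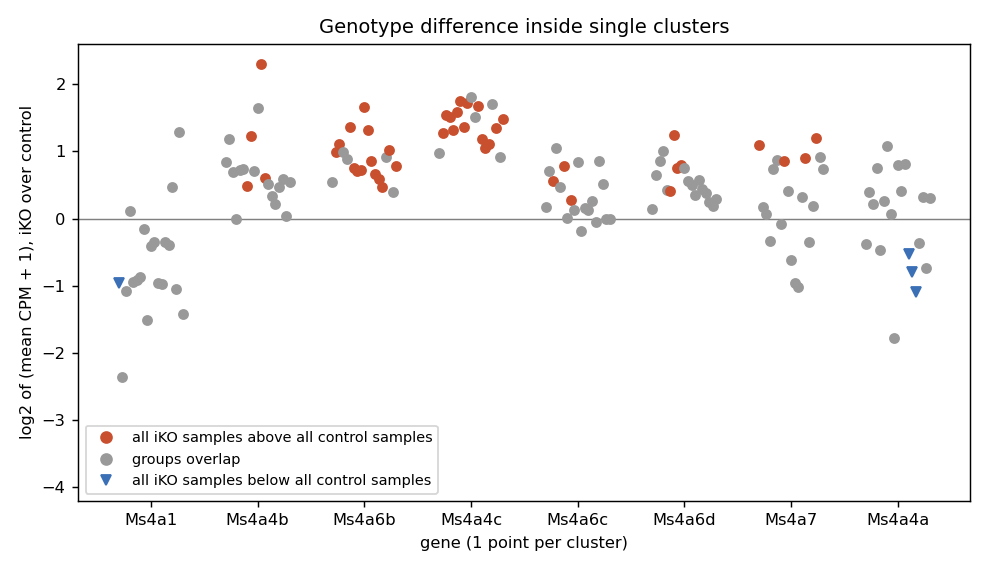
Difference of each member inside single clusters, as log2 of the mean CPM + 1 in iKO over control samples, 1 point a cluster, 19 clusters a gene. Red points mark clusters where all iKO samples lie above all control samples, 14 for Ms4a4c and 14 for Ms4a6b, blue triangles the reverse.

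Whether the myeloid effect differed from the T cell effect was tested directly. For 6 members the iKO minus control difference in monocyte/macrophage-like cells was set against that in CD8 T-like cells, sample by sample, on the log2(CPM + 1) scale. Ms4a4c differed by 0.75 (1.63 against 0.88) with an exact two-sided permutation p of 0.229 (adjusted 0.629 over 6), and Ms4a6c by 0.63 (exact permutation p = 0.286, adjusted 0.629). Ms4a7 differed by 0.36, Ms4a4b by 0.21, Ms4a6b by 0.03 and Ms4a6d by 0.03, with adjusted exact p of 0.629 to 0.943. The smallest exact p of 4 against 4 samples is 0.0286, so after adjustment over 6 members a difference in 1 member alone could not have passed, and these tests do not show whether the effects differ.

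Among 15 other genes of the family, few were measured well enough to test. In monocyte-like cells 3 were tested and all 3 fell: the related Tmem176b by 1.24 on the log2 scale (adjusted p = 0.000466, edgeR) and Tmem176a by 1.21 (adjusted p = 0.000827, edgeR), and Ms4a8a by 0.95 (adjusted p = 0.00619, edgeR), where 6.26% of genes were called lower. Tmem176b had 202 to 319.5 CPM in control and 97.0 to 121 in iKO samples, with no overlap. In the combined class Ms4a14 rose by 0.83 (adjusted p = 0.0183, edgeR) from 3.80 to 4.88 CPM in control to 7.26 to 9.74 in iKO samples. It was 18.3 CPM in macrophage-like and 0.48 CPM in monocyte-like cells over all samples, and inside macrophage-like cells the difference was 0.35 (adjusted p = 0.481, edgeR), beside the rise of cluster 4 from 3.08% to 19.2% of the combined class.

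Of 12 genes for known partners of MS4A proteins (B cell receptor complex, IgE receptor, GITR and calcium entry), 11 were tested in the whole sample and 0 passed in edgeR, where 1 had an unadjusted p under 0.05 and DESeq2 called 1. In CD8 T-like cells 1 of 6 fell, Tnfrsf18, which encodes GITR, by 0.62 (adjusted p = 0.0447, edgeR), where 206 of 9383 genes were called lower, and in monocyte-like cells 1 of 8 rose, the B cell receptor inhibitor gene Cd22 (adjusted p = 0.0300, edgeR), a share near the 8.85% of all genes called higher there. Type I interferon genes moved in the direction of Ms4a4c and Ms4a6b. In monocyte-like cells 31 of 31 rose (median 2.07), in CD8 T-like cells 29 of 30 (1.57), in CD4 T-like cells 26 of 28 (1.97), in B-like cells 15 of 17 (1.80) and in Treg-like cells 20 of 29 (1.59). The medians of the members tested were 0.52, 0.71, 0.70, 0.80 and 0.39 in these classes, and the medians of all genes lay between −0.02 and 0.00. In macrophage-like cells 2 of 31 rose in edgeR and 19 in DESeq2, with a median of 1.34, and in mature dendritic cell-like cells 0 of 29 in edgeR, with 28 at an unadjusted p under 0.05, and 11 in DESeq2. Of the genes listed for interferon gamma, 11 of 20 rose in monocyte-like, 12 of 20 in CD8 T-like, 7 of 18 in CD4 T-like, 4 of 10 in B-like, 3 of 18 in Treg-like and 8 of 20 in neutrophil-like cells, 5 of 20 in the combined monocyte/macrophage-like class, and 2 of 20 in the whole sample. These are edgeR calls, and DESeq2 called 10, 12, 6, 3, 7, 13, 11 and 13 in the same order. In the combined class and the whole sample 15 and 16 had an unadjusted p under 0.05 in edgeR. In macrophage-like, cDC2-like and mature dendritic cell-like cells 0 of 20 passed in edgeR, with 3, 16 and 12 at an unadjusted p under 0.05, and DESeq2 called 0, 3 and 1. Both interferon lists were chosen with earlier results of these samples known.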

How the data were processed

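The authors deposited 1 matrix of raw UMI counts for each hashtagged sample, made with Cell Ranger 7.1.0 per the file headers and the submitters' processing notes. How barcodes were assigned to hashtags, and whether intronic reads counted, is not given here by labels or headers. The notes name the build GRCm39, while promoters and gene order here come from tables of GRCm38.p6.

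Cells with under 300 genes or over 10% mitochondrial counts were removed (1241 barcodes), then 438 doublets with a Scrublet score over 0.25 (1.95% of the rest). Remaining cells were clustered with scanpy 1.11.5 (2000 variable genes, 30 components, Leiden resolution 2) without the Ms4a, interferon-list, Trex1, receptor segment, mitochondrial, ribosomal and sex genes. Clusters were named from markers, with score thresholds set after the data were seen. Profiles of at least 20 cells were tested with edgeR 4.0.16 (TMM, filterByExpr) and with DESeq2 1.42.0 as an alternative. The text names all 8 members, the other family genes that passed, and the partners that passed. For likeness it names genes with the highest r among those detected in at least 500 cells. The script was tested on simulated data.

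The members and lists were chosen with earlier results of these data known. Samples of the same number in the 2 pools deviated together (r = 0.581, 0.296, 0.106 and 0.631 over 11433 genes), so the number was used as a block in an alternative. The labels do not say what it marks. By the same measure iKO sample 2 was more like control sample 1 (0.662), and iKO sample 3 more like control sample 4 (0.477). The same number was thus the best match for iKO samples 1 and 4 only, and calls that passed only with the block rest on an unsettled pairing. The sample number came from the matrix names. Other alternatives changed the scaling, the low-count filter, the doublets, the clustering resolution, the pseudocount and the thinning, or left out 1 sample. A further alternative, chosen after the data were seen, put clusters 7, 19 and 32 back in the combined monocyte/macrophage-like class. Over all genes it called 705 higher and 596 lower there, in place of 665 and 663.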

Additional observations from a re-analysis of the deposited data

Results flagged for a closer look

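In 7 of 140 groups of 4 samples, 1 sample stood far from the other 3, about the 1 in 20 that chance gives. Ms4a1 in B-like cells was 984 CPM in iKO sample 2 and 595 to 655 in the other iKO samples. Ms4a4c in B-like cells was 547 CPM in the same sample and 326 to 357 in the others. Ms4a4c in monocyte-like cells was 634 CPM in control sample 1 and 476 to 499.9 in the other controls. Ms4a4b in Treg-like cells was 245 CPM in control sample 1 and 54.5 to 83.4 in the other controls. Ms4a6b in neutrophil-like cells was 30.4 CPM in control sample 2 and 81.2 to 84.3 in the other controls. Ms4a6c in cDC2-like cells was 429.9 CPM in control sample 4 and 594 to 626 in the other controls. Ms4a1 over the whole sample was 43.0 CPM in control sample 3, where 19.9% of cells were B-like, and 5.81 to 11.3 in the other controls.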

How the results depend on the processing

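Of 21 called differences, 10 stayed called in each of the 8 fits that left out 1 sample: Ms4a4c in B-like, CD4 T-like, monocyte-like and cDC2-like cells and the whole sample, Ms4a6b in CD8 T-like, Treg-like and monocyte-like cells, Ms4a4b in CD8 T-like cells, and Ms4a7 in the combined monocyte/macrophage-like class. Over all alternatives, 266 values of called differences stayed called, 41 did not and 0 changed sign. Differences not called were followed only for Ms4a4a and for members with at least 100 CPM on average in 1 group. With the called ones these made 47 of the 70 pairs. Of the values not called in these pairs, 337 stayed so, 34 passed and 2 changed sign, both of Ms4a1 in B-like cells (without 1 sample, range −0.007 to 0.335). Sign changes in the remaining pairs, of low level, were not counted. Leaving out 1 sample, the number of members called ran from 1 to 3 in B-like, 1 to 3 in CD4 T-like, 2 to 4 in CD8 T-like, 0 to 2 in macrophage-like, 2 to 5 in monocyte-like, 1 to 4 in monocyte/macrophage-like, 0 to 1 in neutrophil-like, 1 to 2 in Treg-like and 1 to 3 in cDC2-like cells, and from 1 to 5 in the whole sample, and was 0 in mature dendritic cell-like cells. With the sample number as a block it was 3 in B-like cells and 5 in the whole sample, and Ms4a6c in cDC2-like, Ms4a6d in CD8 T-like and Ms4a4a in monocyte/macrophage-like cells also passed. The block changed no other call among the 70 pairs. DESeq2's Wald test called 5 members in the whole sample and 1 in macrophage-like cells. Without the low-count filter the number was 3 in B-like, 5 in CD8 T-like, 1 in macrophage-like, 1 in mature dendritic cell-like and 2 in neutrophil-like cells, and with doublets kept 1 in neutrophil-like cells. Scaling by summed UMIs alone, chosen after the data were seen, moved the calls over all genes from 296 higher and 206 lower to 233 and 260 in CD8 T-like cells. It moved them from 665 and 663 to 1067 and 484 in monocyte/macrophage-like cells, from 72 and 31 to 58 and 39 in B-like cells, and from 1 and 2 to 0 and 1 in mature dendritic cell-like cells. It put the median of all genes in neutrophil-like cells at −0.11. With macrophage-like clusters alone the class difference from CD8 T-like cells changed sign for Ms4a4b (−0.04), Ms4a6b (−0.24) and Ms4a7 (−0.12), none of which passed a test. Without 1 sample these differences ranged from −0.023 to 0.47 for Ms4a4b, 0.49 to 1.05 for Ms4a4c, −0.14 to 0.21 for Ms4a6b, 0.36 to 0.96 for Ms4a6c, −0.12 to 0.19 for Ms4a6d and 0.18 to 0.58 for Ms4a7, with sign changes for Ms4a4b, Ms4a6b and Ms4a6d. Thinned to 1000 UMIs, the share of CD8 T-like cells with an Ms4a4b UMI differed by 13.5 percentage points, against 9.09 at 2000. The cause of these changes was not tested. At Leiden resolution 1 monocyte-like and macrophage-like clusters were summed only into the combined class, so the 2 classes were not tested separately at that setting. NK-like, plasmacytoid and cDC1-like cells were not tested, since fewer than 3 control samples had 20 cells of them. Ms4a4a had 10.0 to 41.6 CPM in single samples of macrophage-like and monocyte-like cells.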
